A study of Mus musculus with 8 samples.

Results

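The genes described here are 10 regulators of the first gap phase (G1) of the cell cycle: the D-type cyclins Ccnd1, Ccnd2 and Ccnd3, the E-type cyclins Ccne1 and Ccne2, the kinases Cdk4 and Cdk6, the kinase inhibitors Cdkn1a (p21) and Cdkn1b (p27), and the transcription factor Myc. They were chosen by symbol, and all 10 were found among the 17276 genes of the deposited files. The libraries are messenger RNA of hepatocytes of wild-type male C57BL/6N mice aged 6 to 8 weeks, 4 from cells exposed to shear stress, the drag of moving fluid on a cell surface, and 4 from static culture. Strain, genotype, sex and age were the same in both groups. The labels give neither the strength nor the duration of the stress, and nothing in them ties the libraries of a group to different animals or cultures. The p-values of the main test therefore set the group difference against the spread left among these samples once like replicate numbers are paired. That spread may be technical.

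In G1, mitogens raise D-type cyclins, which bind CDK4 or CDK6. These complexes phosphorylate the retinoblastoma protein and its relatives, which releases E2F factors, and E2F then drives genes of DNA synthesis together with the E-type cyclins, the partners of CDK2. The inhibitors p21 and p27 block CDK2 complexes and also bind cyclin D complexes, p21 being a textbook target of p53. Myc, a partner of the protein Max at E-box sequences, promotes growth and cell cycle entry. Adult hepatocytes rest outside the cycle, enter G1 after loss of liver mass or on isolation, and depend on cyclin D1 to pass the mitogen checkpoint.

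Under shear stress Ccnd1 was 5.31-fold higher, and Cdk4 and Cdk6, which encode its kinase partners, were 1.37-fold and 1.36-fold higher. Ccnd3, the D-type cyclin with the most transcript, was 1.77-fold lower, Ccne2 3.1-fold lower, Cdkn1b 1.68-fold lower and Myc 1.23-fold lower. Ccnd2, Ccne1 and Cdkn1a did not pass the test. These are fold changes of shear stress over static from the edgeR quasi-likelihood test with the replicate number as a block, called where the Benjamini-Hochberg adjusted p over 11747 tested genes was under 0.05. All 10 members had enough counts to be tested, and 3 were called higher and 4 lower. This share, 70.0%, stands near the 61.1% of all tested genes that were called (30.1% higher, 31% lower). Without the block, 48.6% of all genes (24.9% higher, 23.7% lower) and 5 members were called, the calls lost being those of Cdk6 (adjusted p = 0.0507) and Myc (adjusted p = 0.0645). The groups did not overlap for 5 members, against 45.3% of tested genes, and all 4 replicate pairs changed in 1 direction for 7 members, against 68.9%. The median log2 fold change was -0.38 over the members and -0.00249 over all tested genes.

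**Figure D1:**
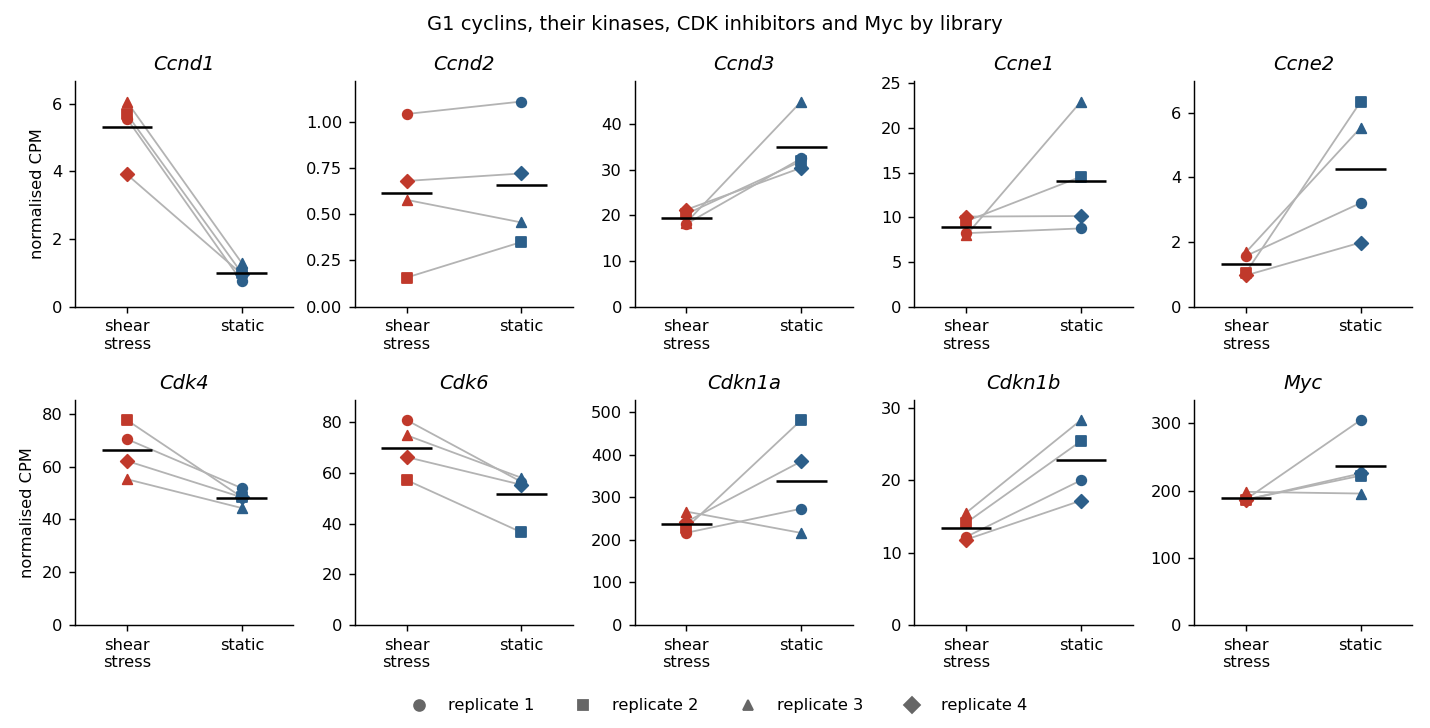
Normalised read counts per library size (CPM, y axis, from 0) of each gene in the 4 shear stress libraries (red) and the 4 static libraries (blue). Marker shapes and grey lines join libraries with the same replicate number, and black bars are group means. Ccnd1, Cdk4, Ccnd3, Ccne2 and Cdkn1b do not overlap between groups, whereas the shear stress values of Cdkn1a lie close together inside a wide static range, and those of Myc lie close together with 1 inside the static range and 3 below it.

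The regulatory sequence of Cdk4 and Cdk6, which were both higher, and of Ccnd3 and Cdkn1b, which were both lower, is shown as the 250 bases before an annotated RefSeq transcript start (GRCm38.p6). Of the 10 members, 6 had such a window in the table used, with 8 windows in all. Ccnd1, Ccnd2, Ccne2 and Myc had none. Capitals mark the E-box CACGTG, the sequence that Myc and Max bind, in Cdk4 and Cdk6, and the CCAAT box in Cdkn1b and Ccnd3. The search covered both strands, and sequences are given 5′ to 3′ on the strand of the gene. The Cdk4 window is chr10:127063285-127063534, plus strand.
Cdk4: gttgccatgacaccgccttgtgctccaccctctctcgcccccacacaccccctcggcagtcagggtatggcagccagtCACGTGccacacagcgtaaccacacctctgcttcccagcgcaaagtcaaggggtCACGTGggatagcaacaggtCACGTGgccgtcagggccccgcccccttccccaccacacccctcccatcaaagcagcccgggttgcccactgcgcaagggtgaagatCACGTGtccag
The Cdk6 window is chr5:3343643-3343892, plus strand, and lies inside the span of the RefSeq gene.
Cdk6: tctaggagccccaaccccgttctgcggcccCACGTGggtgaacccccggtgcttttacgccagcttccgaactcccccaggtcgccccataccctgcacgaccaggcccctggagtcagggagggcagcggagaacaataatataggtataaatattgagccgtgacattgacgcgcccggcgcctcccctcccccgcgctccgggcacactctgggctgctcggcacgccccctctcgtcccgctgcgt
The Cdkn1b window is chr6:134920151-134920400, plus strand.
Cdkn1b: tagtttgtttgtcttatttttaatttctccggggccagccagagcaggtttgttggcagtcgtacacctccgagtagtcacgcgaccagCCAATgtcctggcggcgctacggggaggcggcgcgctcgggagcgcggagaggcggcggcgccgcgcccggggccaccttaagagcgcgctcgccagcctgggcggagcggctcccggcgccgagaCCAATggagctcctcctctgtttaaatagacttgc
The Ccnd3 window is that of the downstream of 2 starts, chr17:47593217-47593466, plus strand, also inside the gene span. The window of the other start, which holds no CCAAT box, is not shown.
Ccnd3: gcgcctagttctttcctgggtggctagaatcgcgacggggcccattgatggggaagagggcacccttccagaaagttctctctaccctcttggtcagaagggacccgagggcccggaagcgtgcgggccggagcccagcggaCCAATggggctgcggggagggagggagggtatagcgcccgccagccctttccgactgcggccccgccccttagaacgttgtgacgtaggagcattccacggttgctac

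The Cdk4 window holds 4 copies of CACGTG and the Cdk6 window 1. Of 32851 RefSeq windows of this length, 6.02% hold at least 1 copy and 7 windows hold 4 or more. None of the other 4 members with a window, Ccnd3, Ccne1, Cdkn1a and Cdkn1b, has this E-box there. The CCAAT box occurs at 2 places in the Cdkn1b window and 1 in the Ccnd3 window shown, and in 33.8% of all windows. It was not found in the window of the other Ccnd3 start, nor in those of Cdk4, Cdk6, Ccne1 and Cdkn1a. The AP-1 site TGANTCA, present in 6.75% of windows, and the E2F site TTTNGCGC, present in 1.13%, were found in none of the 8 windows. The GC box GGGCGG, also searched and present in 32.7% of windows, occurs 1 time each in the Cdk4 and Cdkn1b windows. The 2 Ccnd3 windows hold 2 and 1 copies, the Ccne1 window 4, the Cdkn1a windows 0 and 2, and the Cdk6 window none. It thus occurs with genes called higher, called lower and not called. The serum response element core CCATATTGG was in none. The marked motifs are a choice among those searched. Such matches describe letters and not binding.

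Estimated counts summed to between 16225843 and 16732203 per shear stress library and between 15067056 and 17935566 per static library. Changes refer to CPM scaled with trimmed mean (TMM) factors, which averaged 1.08 in shear stress and 0.926 in static libraries. With library totals in their place the median log2 fold change of all tested genes moved to 0.22, and with upper quartile factors to 0.13. Calls over all genes were 3531 higher and 3645 lower with TMM, 5080 and 2294 with library totals, and 4433 and 2755 with upper quartile factors. A small change, such as that of Myc, therefore has to be read against the scaling. The 8 hepatocyte markers summed to between 38383 and 53959 TPM (a level per transcript length) in shear stress and between 50285 and 63566 TPM in static libraries, with 7 of 8 lower and Hnf4a not called. Of these, Alb fell 1.49-fold, Cps1 1.96-fold and Ass1 1.85-fold, and the calls of Ass1 (adjusted p = 0.0626) and Cyp2e1 (adjusted p = 0.446) were lost without the block. In bulk RNA, fewer cells of a type and less RNA per cell cannot be told apart. Endothelial markers summed to between 1.85 and 8.2 TPM in shear stress and between 3.57 and 9.07 TPM in static libraries, with 1 of 5 tested lower (Pecam1), and stellate and fibroblast markers to between 2.22 and 3.78 TPM and between 1.9 and 6.27 TPM, with 1 of 2 tested lower (Dcn, not called without the block). Macrophage markers summed to between 24.8 and 78.3 TPM in shear stress and between 26.9 and 68.1 TPM in static libraries, nearly all of it Cd68 (not called), while Clec4f, Adgre1, Csf1r and Marco were at 0.15 TPM or less in every library. Cholangiocyte markers, mostly Spp1 with Sox9 at 6.27 to 25.9 TPM over the 8 libraries, summed to between 247 and 1952 TPM in shear stress and between 91.5 and 1311 TPM in static libraries, with 2 of 3 tested higher (Spp1 and Epcam, neither called without the block), and Krt19 was at or under 0.43 TPM. Lymphocyte markers, nearly all Cd79a, were at 0.92 TPM or less in shear stress and between 3.08 and 4.16 TPM in static libraries, with the 1 tested lower. The part of these other cell types in the results below was not tested.

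Per length, Cdkn1a had the highest mean level of the members in both groups, and Ccnd2 the lowest. In shear stress libraries the mean order was Cdkn1a at 209.7 ± 25.1 TPM (SD, n = 4), Myc at 129 ± 9.65, Cdk4 at 84.7 ± 15.4, Ccnd3 at 16.8 ± 1.83, Cdkn1b at 9.08 ± 1.62, Cdk6 at 8.81 ± 1.01, Ccne1 at 7.68 ± 1.07, Ccnd1 at 2.18 ± 0.465, Ccne2 at 0.728 ± 0.191 and Ccnd2 at 0.152 ± 0.0866 TPM. Of these neighbours, Cdkn1b and Cdk6 overlapped over the libraries, as did Cdk6 and Ccne1, and the others did not. In static libraries the order was Cdkn1a at 258 ± 105 TPM, Myc at 137 ± 25.0, Cdk4 at 52.4 ± 4.62, Ccnd3 at 25.5 ± 4.42, Cdkn1b at 13.1 ± 3.24, Ccne1 at 10.3 ± 4.62, Cdk6 at 5.52 ± 0.821, Ccne2 at 2.03 ± 1.01, Ccnd1 at 0.345 ± 0.081 and Ccnd2 at 0.142 ± 0.064 TPM. There Cdkn1a overlapped with Myc, and Cdkn1b with Ccne1. Ccnd1 stood above Ccne2 in each shear stress library and below it in each static library. Cdk6 stood above Ccne1 in shear stress libraries 1 and 3 and below it in 2 and 4, and below it in each static library. Among 11747 tested genes, Cdkn1a stood above 94.9% by mean TPM in shear stress and above 96% in static libraries, and Ccnd1 above 17.2% in shear stress and 4.89% in static libraries.

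**Figure D2:**
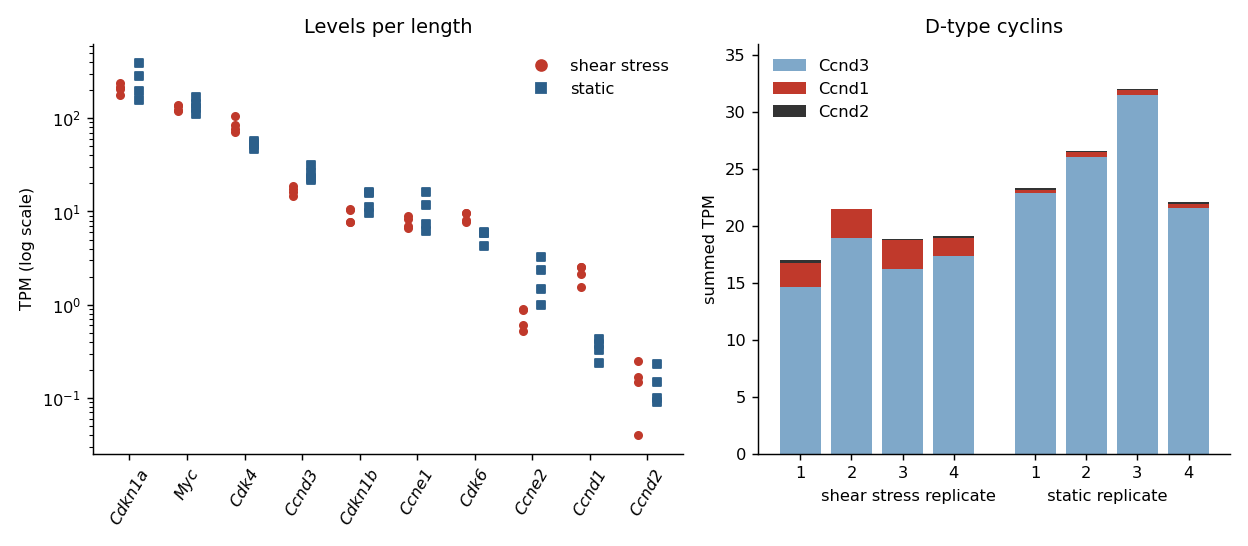
Left, TPM (log axis) of each gene in the 4 shear stress libraries (red circles) and the 4 static libraries (blue squares), ordered by static mean, from Cdkn1a at 258 TPM to Ccnd2 at 0.142 TPM. Right, summed TPM (y axis, from 0) of Ccnd3, Ccnd1 and Ccnd2 in each library, where Ccnd1 makes up between 8.05% and 13.4% in shear stress and between 1.03% and 1.49% in static libraries.

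The D-type cyclins moved in different directions. Ccnd1 (Gene ID 12443; chromosome 7, 144929931 to 144939831) encodes cyclin D1, the mitogen-responsive D-type cyclin of regenerating liver. It was at 5.56, 5.69, 6.06 and 3.91 CPM in shear stress libraries 1 to 4, against 0.739, 0.989, 1.29 and 0.96 CPM in static libraries 1 to 4. Every shear stress library lay above every static library. It rose by 2.41 ± 0.23 on the log2 scale (SE; 95% interval 1.89 to 2.92, adjusted p = 2.33e-05), larger in size than that of 97.3% of tested genes. The 4 replicate pairs changed by 2.91, 2.52, 2.23 and 2.02 on the log2 scale. Behind these values stood between 69.2 and 109 estimated reads per shear stress library and between 11.9 and 17.2 per static library, so the static level rests on few reads. The estimated counts were not whole in any of the 8 libraries (tolerance 1e-09), as can happen where reads were divided between genes. Per library, between 9.31% and 10.7% of all genes had such counts. Ccnd1 overlaps LTO1, on the other strand, by 1771 bases. LTO1 changed by 0.27 (adjusted p = 0.104), and without the strand of the reads their reads cannot be told apart in the overlap.

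Ccnd3 (Gene ID 12445; chromosome 17, 47505051 to 47599689), whose cyclin D3 is found in many resting and differentiated cells, went the other way. Its level was 18.1, 20.3, 18.4 and 21.2 CPM in shear stress libraries, against 32.5, 31.9, 44.9 and 30.4 CPM in static libraries. The groups did not overlap, and static library 3 stood above the other static libraries. The log2 fold change was -0.82 ± 0.13 (adjusted p = 0.000498), and the pairs changed by -0.84, -0.65, -1.29 and -0.52. As for Ccnd1, its estimated counts were not whole, and it overlaps a gene on the other strand, Bysl, by 361 bases (Bysl changed by 0.49, adjusted p = 0.00133). Ccnd2 (Gene ID 12444; chromosome 6, 127125162 to 127152188), the third D-type cyclin gene, had 18, 3, 10 and 12 reads in shear stress libraries, against 18, 6, 6 and 12 in static libraries. The groups overlapped throughout at this depth. Its log2 fold change of -0.14 had a 95% interval from -0.96 to 0.68 (adjusted p = 0.762), and its sign was positive with library totals, with either TPM setting and without replicate 2. Differences within that interval were not detectable at this depth. Ccnd2 overlaps Gm43126 by 994 bases and 9330179D12Rik by 2805 bases, both on the other strand and neither among the tested genes.

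Because Ccnd3 made up most D-type cyclin transcript, the sum of the family was 19.1 ± 1.84 TPM in shear stress and 26.04 ± 4.44 TPM in static libraries (SD, n = 4 each). The share of Ccnd1 in that sum was 12.6%, 11.7%, 13.4% and 8.05% in shear stress libraries, against 1.03%, 1.43%, 1.34% and 1.49% in static libraries. Ccnd3 transcripts outnumbered those of Ccnd1 by 8.02 ± 2.24 to 1 in shear stress and by 75.8 ± 13.5 to 1 in static libraries. Ccnd3 thus remained the main D-type transcript in all 8 libraries, with Ccnd1 a larger minority in the shear stress ones.

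Cdk4 and Cdk6 encode the kinases that D-type cyclins activate. Cdk4 (Gene ID 12567; chromosome 10, 127063535 to 127067288) was at 70.5, 77.7, 55.3 and 62.2 CPM in shear stress libraries, against 51.9, 48.5, 44.3 and 48.4 CPM in static libraries. Its groups did not overlap, and the lowest shear stress library, number 3, was the partner of the lowest static library. It rose by 0.45 ± 0.09 on the log2 scale (adjusted p = 0.0018), with pairs at 0.44, 0.68, 0.32 and 0.36. Cdk4 overlaps Tspan31, on the other strand, by 641 bases, and Tspan31 changed by -0.36 (adjusted p = 0.0045). The nearest tested gene before Cdk4 on the same strand, Mettl1, ends 17.2 kb away, was at a mean of 25.0 CPM and changed by 1.3. Cdk6 (Gene ID 12571; chromosome 5, 3341004 to 3531008) was at 81.0, 57.2, 75.0 and 66.3 CPM in shear stress libraries, against 56.5, 36.6, 58.1 and 55.4 CPM in static libraries. Here the groups overlapped, since shear stress library 2 was below static library 3, but in each pair the shear stress library was the higher one. The log2 fold change was 0.45 ± 0.09 (adjusted p = 0.00194), with pairs at 0.52, 0.65, 0.37 and 0.26. Without the replicate block its adjusted p was 0.0507. Cdk6 overlaps Gm17590 by 8013 bases and Gm42435 by 1448 bases, both on the other strand and neither among the tested genes. The change of each kinase was larger, 0.68 for Cdk4 and 0.67 for Cdk6, with library totals. In the main fit, the change of Cdk4 was larger in size than that of 50.4% of tested genes, and that of Cdk6 than 49.8%.

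On the scale of TPM, Cdk6 kept a share of 9.65% ± 2.11 of the Cdk4 and Cdk6 sum in shear stress and 9.62% ± 1.93 in static libraries. Their sum was 93.5 ± 14.8 TPM in shear stress and 57.9 ± 4 TPM in static libraries, and D-type cyclin transcripts numbered 0.207 ± 0.0258 per kinase transcript in shear stress and 0.454 ± 0.106 in static libraries. Per kinase transcript, D-type cyclin transcript was thus lower in every shear stress library, at 0.231 or less, than in every static library, at 0.385 or more.

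**Figure D3:**
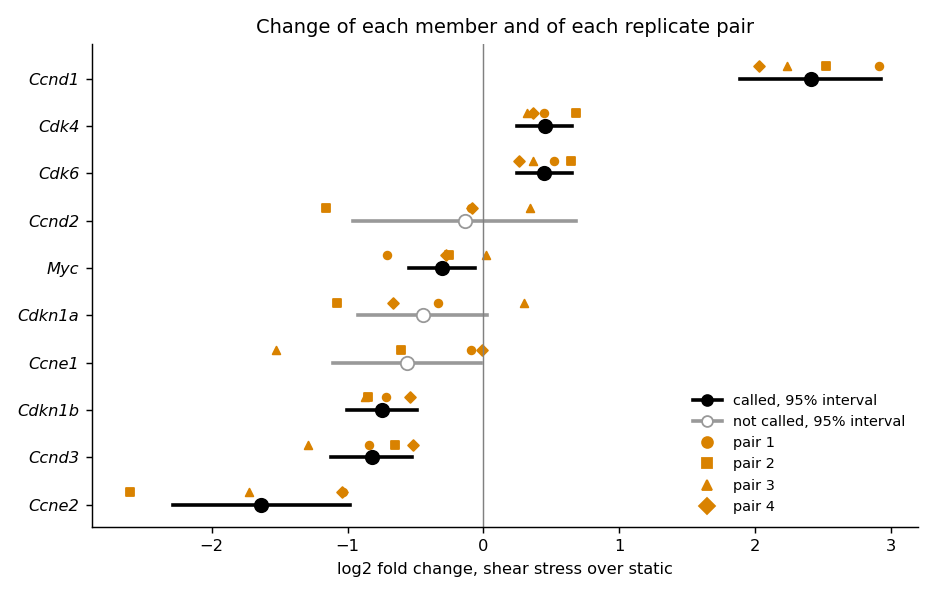
Log2 fold change of shear stress over static (x axis) for each gene. Circles with bars are the fitted value with its 95% interval, filled where the adjusted p was under 0.05, and orange markers are the 4 replicate pairs. Ccnd1, at 2.41, stands apart from the other 2 rises, and the pairs of Cdkn1a and Ccne1 spread more widely than those of Cdk4, Cdk6 and Cdkn1b.

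The E-type cyclins, which activate CDK2 at the entry into DNA synthesis, were spread widely among static libraries. Ccne2 (Gene ID 12448; chromosome 4, 11190433 to 11204779) was at 1.56, 1.04, 1.67 and 0.962 CPM in shear stress libraries, against 3.2, 6.34, 5.53 and 1.98 CPM in static libraries. The groups did not overlap, and static libraries 2 and 3 were the highest. It fell by 1.63 ± 0.29 on the log2 scale (adjusted p = 0.000896), with pairs at -1.04, -2.6, -1.73 and -1.04. Its estimated counts were not whole either, and Ccne2 overlaps Ints8, on the other strand, by 5622 bases, and Ints8 changed by -0.24 (adjusted p = 0.0803). The nearest tested gene before it on the same strand, Trp53inp1, ends 17.0 kb away, was at a mean of 157 CPM and changed by -0.69.

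Ccne1 (Gene ID 12447; chromosome 7, 38097984 to 38107490) was at 8.22, 9.55, 7.96 and 10.1 CPM in shear stress libraries, against 8.75, 14.5, 23.0 and 10.1 CPM in static libraries. The groups overlapped, and the static libraries 2 and 3 were again high. The pairs changed by -0.09, -0.61, -1.53 and -0.01. The log2 fold change of -0.57 ± 0.24 was not called (95% interval -1.11 to -0.02, adjusted p = 0.0679), and its adjusted p was 0.0388 without replicate 4, 0.0446 with DESeq2 and 0.227 at the most over all alternatives. Ccne2 made up 8.89% ± 3.17 of E-type cyclin TPM in shear stress and 16.5% ± 4.87 in static libraries, and the highest shear stress share, 12%, was just under the lowest static share, 12.1%.

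Of the inhibitors, Cdkn1b (Gene ID 12576; chromosome 6, 134920401 to 134925525), the gene of p27, which accumulates in resting cells, was lower. It was at 12.2, 14.1, 15.5 and 11.8 CPM in shear stress libraries, against 20.0, 25.4, 28.3 and 17.2 CPM in static libraries. No shear stress library reached the lowest static library. Its log2 fold change was -0.75 ± 0.12 (adjusted p = 0.000395), and the pairs lay close together at -0.72, -0.85, -0.87 and -0.54. The libraries with the higher shear stress values, 2 and 3, were partners of the higher static ones.

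Cdkn1a (Gene ID 12575; chromosome 17, 29090979 to 29100722), the gene of p21, was at 216, 228, 266 and 242 CPM in shear stress libraries, against 273, 481, 216 and 384 CPM in static libraries. The shear stress libraries had a coefficient of variation of 8.99%, and the static ones of 34.8%. Static library 3 was below all 4 shear stress libraries, and the other 3 static libraries were above them. Pairs 1, 2 and 4 changed by -0.33, -1.08 and -0.67, and pair 3 by 0.3. The log2 fold change of -0.45 ± 0.20 was not called (95% interval -0.92 to 0.03, adjusted p = 0.0924). Without replicate 3 it was -0.69 (adjusted p = 0.00269). Cdkn1a overlaps AC167363.2, on the other strand and not among the tested genes, by 1046 bases. Transcripts of p21 and p27 together numbered 2.39 ± 0.511 per Cdk4 and Cdk6 transcript in shear stress and 4.63 ± 1.58 in static libraries (TPM, SD, n = 4 each), with at most 3.05 in shear stress and at least 3.3 in static libraries. Most of the inhibitor sum was Cdkn1a, with Cdkn1b at 4.14% ± 0.391 in shear stress and 5.42% ± 2.62 in static libraries. That sum was 219 ± 26.5 against 271 ± 106 TPM, and the sum of Cdk4 and Cdk6 was 93.5 ± 14.8 against 57.9 ± 4 TPM.

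Myc (Gene ID 17869; chromosome 15, 61985341 to 61990361) was abundant in all libraries, at 187, 187, 198 and 187 CPM in the shear stress group, against 305, 222, 196 and 226 CPM in the static group. Shear stress libraries lay within a coefficient of variation of 3.04%, against 19.9% in static libraries, of which number 1 was the highest. Static library 3 lay below shear stress library 3 and above the other 3 shear stress libraries, so the groups overlapped. Its fitted change on the log2 scale was -0.3 ± 0.11 (adjusted p = 0.0324), with pairs at -0.71, -0.25, 0.02 and -0.27. This call depended on the settings. The adjusted p was 0.0645 without the block, 0.564 with library totals, 0.222 with upper quartile factors, 0.228 without replicate 1 (log2 fold change -0.15), 0.0857 without replicate 2 and 0.0799 without replicate 4. On the TPM scale Myc was at 129 ± 9.65 in shear stress and 137 ± 25.0 in static libraries.

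The profiles closest to Ccnd1 over the 8 libraries, by Euclidean distance of centred log2 CPM among 9337 genes of at least 5 CPM, were those of Slc4a11 (distance 0.746), Rpp38 (0.813) and Tsku (0.893). They changed by 2.3, 2.48 and 2.27 on the log2 scale. Closest to Cdkn1a were Arap2 (distance 0.434), Chrnb1 (0.461) and Tdrd7 (0.467), and among the closest to Myc were Uvssa (0.121) and Pir (0.229). These are descriptions of likeness over 8 libraries in 2 groups.

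Other genes of the pathway were taken from lists that follow the roles of the members, and their counts are given beside the background of 30.1% higher and 31% lower. Of the other inhibitors, Cdkn1c and the INK4 genes Cdkn2b, Cdkn2c and Cdkn2d were tested (4 of 5 measured). Cdkn2d fell 4.63-fold, to 0.301 ± 0.195 CPM in shear stress against 1.48 ± 0.828 CPM in static libraries, and Cdkn1c fell 2.44-fold, to 0.474 ± 0.0873 against 1.21 ± 0.568 CPM (SD, n = 4). Both were thus near the limit of detection. Cdkn2b, at 6.61 ± 1.76 CPM in shear stress and 5.23 ± 1.14 CPM in static libraries (0.33, adjusted p = 0.127), and Cdkn2c (-0.27, adjusted p = 0.428) were not called. The 2 lower calls were 1 without replicate 1 or 2 and 1 with DESeq2.

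Of the retinoblastoma family and the E2F and DP factors downstream of the cyclin D kinases, 12 of 13 measured genes were tested, 3 higher and 7 lower. Rb1, the retinoblastoma gene itself, fell 2.38-fold, to 6.19 ± 1.61 CPM in shear stress against 14.5 ± 1.51 CPM in static libraries. Its relative Rbl2 (p130), typical of resting cells, fell 1.66-fold, whereas Rbl1 (p107), typical of cycling cells, rose 1.89-fold, to 8.7 ± 2.03 against 4.53 ± 0.938 CPM. The repressor gene E2f6 fell 2.09-fold, the DP gene Tfdp2 fell 2.32-fold and the activator gene E2f1 fell 1.76-fold, to 2.15 ± 0.351 against 3.9 ± 1.36 CPM. The activator gene E2f3 rose 1.47-fold and E2f4, which pairs with p130, rose 1.18-fold, to 69.2 ± 6.1 against 58.6 ± 4.29 CPM. The call of E2f4 was lost without the block (adjusted p = 0.065). Rb1 shares its span with Rcbtb2 and Lpar6 on the other strand.

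The kinase of E-type cyclins, Cdk2, fell 1.42-fold, to 16.2 ± 2.01 CPM in shear stress against 23.3 ± 4.95 CPM in static libraries. The 3 subunits of the CDK-activating kinase, which phosphorylates CDK4, CDK6 and CDK2, were all higher. Cdk7 rose 2.28-fold, to 28.9, 29.6, 25.0 and 29.3 CPM in shear stress libraries against 12.4, 13.5, 10.4 and 13.1 CPM in static libraries, Mnat1 rose 1.89-fold and its cyclin gene Ccnh 1.31-fold. Of the 3 CDC25 phosphatase genes, which remove inhibitory phosphates from kinases, Cdc25a was tested and not called (0.18, adjusted p = 0.369). The fall of Cdk2 was not called with library totals, and the rises in this list numbered 2 without replicate 1 or 3.

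Of 14 genes listed with the ubiquitin ligases that degrade G1 cyclins, p27 and Myc, 4 were higher and 7 lower. The list also holds Usp28, whose enzyme removes ubiquitin and which was not called (0.1, adjusted p = 0.471). The scaffold genes Cul3 and Cul1 fell 1.58-fold and 1.37-fold, and Huwe1, a ligase for Myc, fell 1.38-fold to 375 ± 29.0 CPM in shear stress against 518 ± 55.6 CPM in static libraries. Skp2, the adaptor that targets p27, rose 1.67-fold at 2.2 ± 0.459 against 1.31 ± 0.275 CPM, while Cks1b, its cofactor, fell 1.64-fold (adjusted p = 0.0558 without the block). Fbxw7, the adaptor for cyclin E and Myc, was at 14.3 ± 0.717 CPM in shear stress and 14.0 ± 2.81 CPM in static libraries (0.04, adjusted p = 0.83). The rises numbered 1 without replicate 2 or 4 and 2 without replicate 1 or with DESeq2, and the falls numbered 4 without the block or without replicate 1.

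Of the partners and antagonists of Myc, 11 of 13 measured genes were tested, 2 higher and 5 lower, with 1 rise without replicate 4. Max, the partner of Myc, was at 38.1 ± 2.73 CPM in shear stress and 40.7 ± 6.52 CPM in static libraries (-0.09, adjusted p = 0.438). The antagonist gene Mxd1 fell 5.44-fold, to 1.56, 1.57, 0.404 and 1.08 CPM in shear stress libraries against 8.01, 6.17, 5.68 and 4.8 CPM in static libraries. Its relatives Mxi1 and Mxd4 fell 1.93-fold and 1.46-fold, while the antagonist gene Mnt rose 1.57-fold, to 34.6 ± 2.22 against 22.0 ± 2.1 CPM. Mlxipl, which encodes the glucose-responsive factor ChREBP, fell 1.54-fold.

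Of 20 known target genes of Myc, 10 were higher, 2 lower and 8 not called, and their median change was 0.16 on the log2 scale. Nop56, which encodes a protein of the nucleolus, rose 2.43-fold, to 258, 294, 251 and 253 CPM in shear stress libraries against 114, 107, 131 and 87.1 CPM in static libraries. Odc1, the gene of the first enzyme of polyamine synthesis, rose 1.81-fold, to 390, 401, 284 and 315 CPM against 190, 211, 152 and 214 CPM. Cad, which begins pyrimidine synthesis, rose 1.78-fold. None of these 3 genes overlapped between groups, against 45.3% of all tested genes that did not. They were named for their small p, so this separation follows from the choice. Ncl, Npm1 and Ldha, which are more abundant, changed by 0.2, -0.09 and -0.19, of which Npm1 was not called and the other two were not called without the block (adjusted p = 0.178 for Ncl and 0.135 for Ldha). The 2 lower calls, Ldha and Phb, were 1 without the block or without any of the 4 replicates in turn, and 0 with library totals or upper quartile factors.

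**Figure D4:**
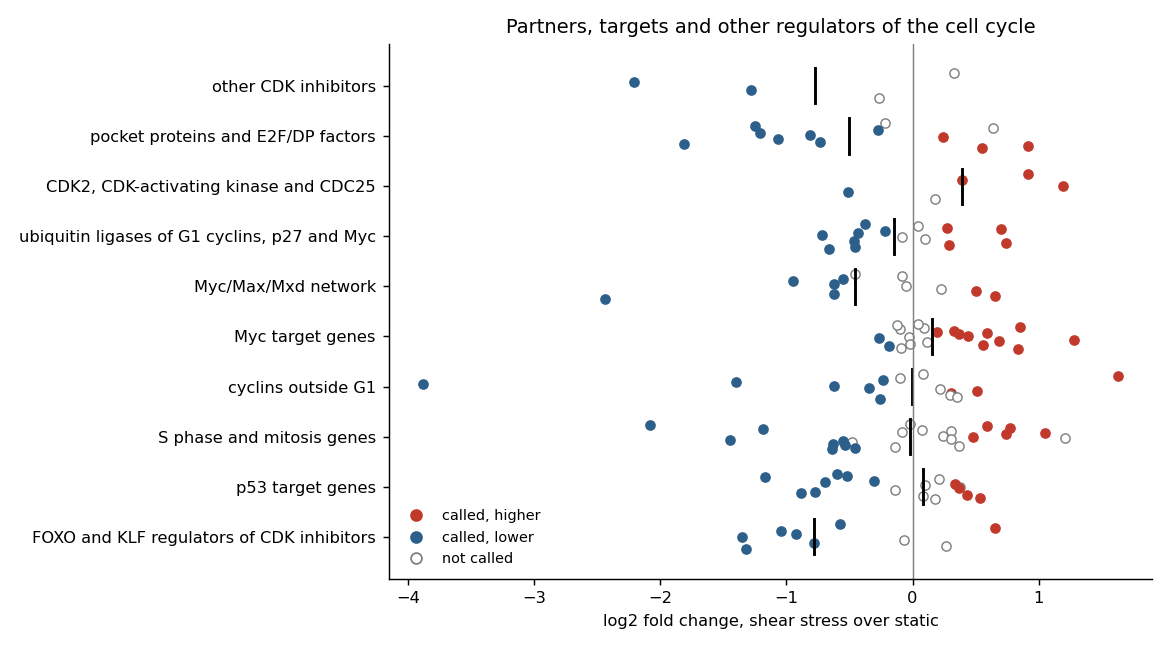
Log2 fold change of shear stress over static (x axis) for each tested gene of 10 lists around the G1 regulators, red where called higher, blue where called lower and open where not called, with black bars at list medians (vertical offsets within a row have no meaning). FOXO and KLF regulators have a median of -0.79 with 6 of 9 lower, and Myc target genes a median of 0.16 with 10 of 20 higher.

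Of 9 FOXO, KLF and SP factors that act on the p21 and p27 genes, 1 was higher and 6 lower, and the list had a median change of -0.79 on the log2 scale. The FOXO factors, which can activate p27, went both ways. Foxo3 fell 2.51-fold, to 19.8, 19.4, 18.6 and 19.1 CPM in shear stress libraries against 40.9, 49.9, 67.5 and 39.1 CPM in static libraries. Foxo4 fell 1.72-fold. Foxo1 rose 1.57-fold, and 2 rises were called in the list without replicate 2 and with library totals or upper quartile factors. Klf6, an activator of p21, fell 2.06-fold to 314 ± 54.4 CPM in shear stress against 641 ± 36.2 CPM in static libraries, and Klf9 fell 1.9-fold. Of p53 and 16 of its target genes other than p21, 4 were higher and 7 lower, and the list's median change was 0.08 (log2). Trp53, the p53 gene, was at 95.7 ± 10.2 CPM in shear stress and 90.3 ± 5.83 CPM in static libraries (0.08, adjusted p = 0.459). Mdm2, the feedback inhibitor of p53, fell 1.71-fold and Btg2, an antiproliferative gene, fell 1.84-fold, while Gadd45a, a growth arrest gene, rose 1.35-fold. This balance followed the scaling, with 7 higher and 2 lower with library totals and 7 and 4 with upper quartile factors. It was 1 and 4 without the block, 2 rises were called without replicate 1 or 2, and 3 falls without replicate 4.

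Genes of later phases of the cycle were mostly at low levels. Of 27 measured genes of DNA synthesis and mitosis, 23 were tested, 5 higher and 8 lower, with 1 higher without the block or without replicate 4, and 9 higher with library totals. Mki67, the standard proliferation marker, was at 0.694, 0.887, 1.04 and 0.736 CPM in shear stress libraries against 1.85, 2.85, 2.05 and 2.46 CPM in static libraries, a 2.73-fold fall. Pcna, the sliding clamp of DNA polymerase, fell 1.56-fold to 56.0 ± 8.36 CPM against 89.3 ± 27.1 CPM. Cdc6, which loads the replicative helicase, fell 4.24-fold to 0.589 ± 0.369 against 2.48 ± 0.426 CPM. Mki67 and Cdc6 were thus near the limit of detection. Mcm6, the most abundant gene of the list, fell 1.55-fold, to 184 ± 34.1 CPM in shear stress against 293 ± 101 CPM in static libraries. Against the 8 falls, the 5 rises were Tk1 (2.07-fold), Aurkb (1.71-fold), Gins2 (1.67-fold), Rrm2 (1.5-fold) and Mcm4 (1.4-fold). Of these rises, only that of Tk1 was called without the block (adjusted p = 0.046). Cdk1 (0.24, adjusted p = 0.446) and the cyclin gene Ccna2 (0.08, adjusted p = 0.848), both with group means below 2 CPM, were not called. Of 14 tested cyclins outside G1, 3 were higher and 6 lower, with 5 and 3 with library totals or upper quartile factors and 5 higher without replicate 2. Ccng2, a cyclin of growth arrest, fell 2.64-fold to 19.0 ± 2.14 CPM in shear stress against 50.9 ± 13.5 CPM in static libraries, and Ccnj rose 3.09-fold to 3.45 ± 0.31 against 1.12 ± 0.319 CPM. The mitotic cyclin gene Ccnb2 was at 0.36 ± 0.15 CPM in shear stress and 5.46 ± 1.04 CPM in static libraries (14.7-fold lower, adjusted p = 8.4e-06). It begins 3.88 kb after the end of Rnf111 on the same strand, which was at a mean of 37.5 CPM and changed by -0.33, and Cdc6 begins 2.76 kb after Wipf2, which was at 20.2 CPM and changed by -0.45. The part of reads running on from these neighbours was not tested.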

How the data were processed

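The 8 libraries of mouse hepatocytes, 4 from shear stress and 4 from static culture, were grouped by their titles. Per the labels' protocols, total RNA was extracted with TRIzol and libraries were prepared with phi29, a DNA polymerase. The submitters' processing notes name HISAT, Bowtie2, RSEM and the build GRCm38 (mm10). The sources used here do not give versions, the annotation or whether strand was used. Read counts in the deposited files are expected counts, estimated by the authors, and need not be whole. The deposited TPM and FPKM columns are the authors' values as well. TPM served for levels between genes and for alternatives with pseudocounts of 1 and 0.1, and FPKM was not used.

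Expected counts were rounded, filtered with filterByExpr (11747 genes kept), scaled with TMM and tested with edgeR 4.0.16 (quasi-likelihood F test, robust) in R 4.3.3 with the replicate number as a block, as the rule for the members asks. The p-values were adjusted by Benjamini-Hochberg over all tested genes at 0.05. Standard errors are the log2 fold change over the square root of F, and 95% intervals use the fit's degrees of freedom. The procedure was tested on simulated counts in which few genes changed, each in a random direction. Many more genes were called in these data, so that test does not speak to the choice of scaling. Deviations from the group means correlated between libraries of like number (r = 0.679, 0.642, 0.56 and 0.467 over 8446 genes) and not between others (-0.0178 or less), which meets the rule for pairs, although the labels leave the meaning of a number unsaid. The biological coefficient of variation was 0.125 with the block and 0.214 without it. Alternatives used DESeq2 1.42.0, limma 3.58.1, other scalings, no filter, no block, and each replicate number left out. Intervals cover the spread between these libraries that was left after the replicate block.

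The members and the gene lists were chosen with earlier results of these data known, and lists are described by counts and medians. From each list, the 3 called genes of smallest p were named, or the most abundant one where none was called, and further inhibitors, pocket proteins, E2F factors and Myc partners. Other genes named in those lists were chosen after their values were seen. Sequences are RefSeq windows of GRCm38.p6, and gene overlaps were read from GENCODE annotation of that build. One gene among the nearest profiles and one cell type marker are not reported here.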

Additional observations from a re-analysis of the deposited data

Results flagged for a closer look

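A library far from the other 3 of its group, by the gap to its nearest neighbour over the range of the group, was found in 11 of 96 groups tested (48 genes in each condition, members and named genes). Chance flags about 1 in 20 groups where these are independent. The groups here share the same libraries and hold chosen genes, so an excess over chance cannot be read from this count. Among the members, Ccnd3 in static replicate 3 was at 44.9 CPM, against 30.4 to 32.5 CPM in the other static libraries. Cdk6 in static replicate 2 was at 36.6 CPM, against 55.4 to 58.1 CPM. Myc in shear stress replicate 3 was at 198.2 CPM, against 186.5 to 187 CPM.

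Of the other genes, 4 had shear stress replicate 3 or static replicate 3 apart from its group: in shear stress replicate 3, Rb1 was at 8.6 CPM (others 5.22 to 5.55), Cdk7 at 25.0 CPM (28.9 to 29.6) and Cul3 at 143 CPM (133 to 134), and in static replicate 3, Tfdp2 was at 25.8 CPM (17.8 to 19.0). Nop56 was at 293.9 CPM in shear stress replicate 2 (251 to 258). Klf9 was at 44.9 CPM in static replicate 4 (67.8 to 71.0). Pecam1, an endothelial marker, was at 3.94 CPM in shear stress replicate 1 (1.1 to 1.27), and Cd79a, a B cell marker, at 0.417 CPM in shear stress replicate 2 (0 to 0.0577).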

How the results depend on the processing

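Over 12 alternatives for each member, 104 of 120 values kept their direction and their side of the threshold. Ccnd1 (log2 fold change between 1.23 and 2.63), Ccnd3 (-0.92 to -0.57), Ccne2 (-1.81 to -0.76), Cdk4 (0.39 to 0.68) and Cdkn1b (-0.81 to -0.47) did so in all 12. The lowest sizes of Ccnd1 and Ccne2 came with a TPM pseudocount of 1, which is large beside their levels. Without the replicate block, Cdk6 (0.44, adjusted p = 0.0507) and Myc (-0.32, adjusted p = 0.0645) lost their calls, and no other member's call changed. Myc also lost its call with library totals (-0.0797), upper quartile factors (-0.17) and log2 TPM with a pseudocount of 1 (-0.0744) or 0.1 (-0.0748). Ccne1 was called with DESeq2 (-0.57). Ccnd2 turned positive with library totals (0.0741), log2 TPM with a pseudocount of 1 (0.0111) or 0.1 (0.0193) and without replicate 2 (0.0354). With 1 replicate number left out, log2 fold changes ran from -0.41 to -0.15 for Myc, -0.75 to -0.25 for Ccne1, -0.69 to -0.22 for Cdkn1a and -0.26 to 0.0354 for Ccnd2. Apart from the fewer samples, the cause of these changes was not tested.

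Falls over all genes numbered 2294 with library totals, 2223 with a TPM pseudocount of 1 and 2219 with 0.1. Of 240 list counts under alternatives, 175 stayed within 1.5 times. Without the block, ubiquitin ligase genes had 4 falls, Myc targets 1 fall, S phase genes 1 rise, and p53 targets 1 rise and 4 falls. With DESeq2, other inhibitors had 1 fall and ubiquitin ligases, S phase genes and p53 targets 2 rises each. With library totals and with either TPM setting, other inhibitors had 1 rise, the CDK2 list 0 falls, ubiquitin ligases 3 falls (2 with TPM), Myc targets 0 falls, cyclins outside G1 5 rises and 3 falls, S phase genes 9 rises (8 with pseudocount 1), p53 targets 7 rises and 2 falls, and FOXO and KLF factors 2 rises. With upper quartile factors the counts were 1 rise of other inhibitors, 0 falls of Myc targets, 5 rises and 3 falls of cyclins outside G1, 8 rises of S phase genes, 7 rises and 4 falls of p53 targets and 2 rises of FOXO and KLF factors. With no filter the CDK2 list had 2 falls. With 1 replicate number left out, falls of other inhibitors numbered 1 to 2, ubiquitin ligases 1 to 3 rises and 4 to 6 falls, Myc partners 1 to 3 rises, Myc targets 1 fall, cyclins outside G1 2 to 5 rises, S phase genes 1 to 4 rises, p53 targets 2 to 5 rises and 3 to 6 falls, and FOXO and KLF factors 1 to 2 rises.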
